A study of Mus musculus with 35 samples.

Results

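Ventral brain (vB) was compared with limb by RNA-seq in wild-type CD1 mouse embryos at embryonic day 11.5. The comparison took the 6 libraries that the labels call ventral neural tube, named vB in the study and dissected from the forebrain and midbrain regions, and the 6 libraries labelled limb. These are 12 of the 35 libraries of the series. Neither group carried a mutation or a treatment. Each library was a pool of polyA RNA from several embryos, so a value is a mean over animals and over all cell types of the dissected piece. Whether forelimb and hindlimb buds went into the same pool is not given in the sources used here.

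The 2 tissues are built in different ways from the same signalling families. The ventral forebrain and midbrain are neuroepithelium in which Sonic hedgehog from the ventral midline sets up domains of transcription factors, and in which Notch signalling decides which progenitor leaves the cell cycle as a neuron. A limb bud is a core of lateral plate mesenchyme under surface epithelium, with Sonic hedgehog made at its posterior margin, Fgf ligands made in the ridge at its tip, and Hox genes of the A and D clusters turned on in sequence as it grows. Muscle precursors migrate into it from the somites.

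Expression is given in FPKM, the fragments assigned to a gene per length of transcript and per number of fragments in the library, summed over the transcripts of each gene. Differences are vB minus limb on the log2(FPKM + 1) scale, with the SE of limma's fit and its Benjamini-Hochberg adjusted p. That scale understates the fold change of genes with few FPKM. A gene was called higher in a tissue at an adjusted p under 0.05 and a difference of at least 1, which is 2-fold. In bulk tissue, fewer cells of a type and less RNA per cell cannot be told apart.

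The labels held against marker genes in all 12 libraries. The Hox gene mean was 0.00 to 0.03 in vB and 2.51 to 2.92 in limb, while the mean of early neuron genes was 3.84 to 5.40 in vB and 0.93 to 1.46 in limb, both as mean log2(FPKM + 1). The 6 vB libraries were unlike each other. Mesenchyme markers averaged 3.90 to 4.63 in vB replicates 1, 4 and 5 and 0.71 to 2.34 in replicates 2, 3 and 6, against 4.11 to 5.21 in limb. Replicates 1 and 5 also held surface epithelium markers (1.75 and 1.90, against 0.33 to 0.46 in the other vB libraries) and the lens gene Cryaa (3.77 and 8.17 FPKM, and 0 in the other 10 libraries). Replicate 4 was the lowest vB library in ventral telencephalon factors (2.23, against 3.87 to 4.90). The library numbered 4 was also the lowest for this list in limb (0.94, against 1.33 to 1.82) and in dorsal brain (1.80, against 2.37 to 3.2). Limb replicate 1 held traces of vB genes. Over the 27 genes called higher in vB that reached 20 FPKM in vB replicate 1 and stayed under 0.5 FPKM in limb replicates 2 to 6, limb replicate 1 had a median of 2.97% of the level in vB replicate 1, with a range of 1.51 to 7.31%, and the names of the deposited tables put these libraries in the same sequencing run and lane. Counts with replicates 2, 3 and 6 as the only vB libraries are given beside some lists, and where none is given the count may still differ. Across genes, the median SD was 0.347 in vB and 0.217 in limb, and it was larger in vB for 81.7% of the genes tested. Coverage per FPKM ranged from 3.15 to 5.17, and between 11742 and 12844 genes per library reached 1 FPKM.

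**Figure D1:**
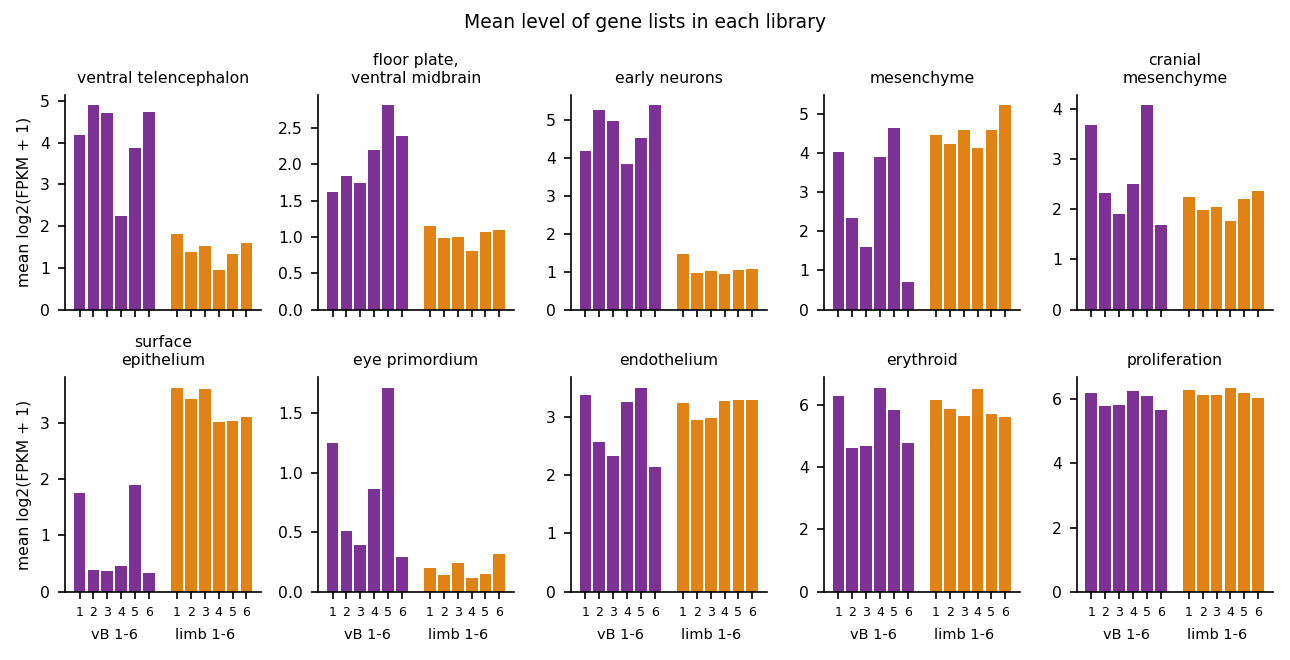
Mean log2(FPKM + 1) of 10 gene lists (vertical axes) in each of the 6 vB and 6 limb libraries (bars, replicates 1 to 6 of each tissue). Mesenchyme, surface epithelium and eye markers were highest among the vB libraries in replicates 1, 4 or 5, ventral telencephalon factors were lowest in replicate 4, and proliferation genes ranged from 5.67 to 6.25 in vB and from 6.04 to 6.36 in limb.

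The starts of 5 genes that carry the contrast are shown first, as 250 bases before and 50 bases after the start of transcription in RefSeq on GRCm38.p6, read 5′ to 3′ on the gene's own strand. Fabp7, which binds fatty acids in radial glia, and Stmn3, a microtubule regulator of neurons, differed most towards vB, and Hoxd13, the last gene of the HoxD cluster, differed most towards limb. Gsx1, a homeobox gene of ventral progenitors, and Hoxd12 were added after their values were seen because both hold the first part of the RE1 element, at which the repressor Rest binds neuronal genes. The 4 motifs below were searched on both strands and appear in capitals: CAGCTG and CATCTG, the E-boxes of neural and muscle bHLH factors, TTCAGCACC, the first part of RE1, and TATAAA, the TATA box. None of these contains another.
Fabp7, chr10:57784673-57784972, plus strand: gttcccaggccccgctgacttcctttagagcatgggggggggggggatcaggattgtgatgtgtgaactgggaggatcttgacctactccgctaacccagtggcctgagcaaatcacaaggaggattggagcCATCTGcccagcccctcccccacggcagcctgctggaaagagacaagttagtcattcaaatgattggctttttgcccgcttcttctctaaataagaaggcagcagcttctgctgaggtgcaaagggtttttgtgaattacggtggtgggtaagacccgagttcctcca
Stmn3, chr2:181314451-181314750, minus strand: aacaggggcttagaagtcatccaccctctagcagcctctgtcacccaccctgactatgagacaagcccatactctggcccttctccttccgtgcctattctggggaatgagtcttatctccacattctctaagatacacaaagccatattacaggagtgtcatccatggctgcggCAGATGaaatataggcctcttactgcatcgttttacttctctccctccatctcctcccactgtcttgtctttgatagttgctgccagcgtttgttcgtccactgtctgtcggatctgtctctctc
Gsx1, chr5:147188446-147188745, plus strand: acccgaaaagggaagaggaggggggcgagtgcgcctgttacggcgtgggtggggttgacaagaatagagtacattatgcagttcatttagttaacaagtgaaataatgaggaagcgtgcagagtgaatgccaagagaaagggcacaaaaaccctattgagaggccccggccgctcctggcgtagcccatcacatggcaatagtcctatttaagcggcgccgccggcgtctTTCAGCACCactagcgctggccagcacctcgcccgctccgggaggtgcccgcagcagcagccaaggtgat
Hoxd13, chr2:74667975-74668274, plus strand: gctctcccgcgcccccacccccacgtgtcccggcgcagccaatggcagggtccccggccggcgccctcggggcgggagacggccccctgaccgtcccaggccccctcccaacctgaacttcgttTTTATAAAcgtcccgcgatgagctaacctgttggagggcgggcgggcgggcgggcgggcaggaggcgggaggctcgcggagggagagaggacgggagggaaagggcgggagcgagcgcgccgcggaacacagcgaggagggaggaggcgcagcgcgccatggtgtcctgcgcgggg
Hoxd12, chr2:74674763-74675062, plus strand: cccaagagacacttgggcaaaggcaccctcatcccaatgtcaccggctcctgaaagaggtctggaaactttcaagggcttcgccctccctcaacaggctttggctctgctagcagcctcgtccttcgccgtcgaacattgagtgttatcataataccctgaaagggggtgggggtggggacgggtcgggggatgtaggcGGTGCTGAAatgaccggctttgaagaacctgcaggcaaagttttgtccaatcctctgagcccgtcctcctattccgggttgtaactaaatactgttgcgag
Fabp7 holds CATCTG starting 118 bases before its start, and Stmn3 holds the same motif on the other strand 75 bases before its start. Hoxd13 holds TATAAA on both strands in 1 overlapping block. TTCAGCACC lies 20 bases before the start of Gsx1 and, on the other strand, 51 bases before that of Hoxd12. Of the 32817 promoters of this length in the table, 16.3% hold CAGCTG, 17.2% hold CATCTG, 0.372% hold TTCAGCACC and 13.6% hold TATAAA. A matched promoter was at hand for 75.4% of the genes tested, fewer than the 80% set as the least for comparing motif shares between gene sets, so no such comparison is given.

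Of 13378 genes tested, 1868 (14.0%) were called, 1137 (8.50%) of them higher in vB and 731 (5.46%) higher in limb. The libraries of the 2 tissues did not overlap for 2514 genes (18.8%). The median difference over all genes was -0.04. The sequencing runs of replicates 1 to 3 were not those of replicates 4 to 6. With replicates 1 to 3 alone, 1329 genes (9.90%) were called higher in vB and 770 (5.74%) higher in limb, and with replicates 4 to 6 alone the counts were 568 (4.28%) and 281 (2.12%). No gene called over the 12 libraries had the opposite sign in either set of 3. With vB replicates 2, 3 and 6 as the only vB libraries, 1587 (11.8%) and 1077 (8.00%) were called. Of the genes tested, 1092 passed the filter of 1 FPKM through vB only and 600 through limb only. Such genes were bound to be higher in that tissue, so the count of a list that holds many of them describes its levels. They made up 25 of 36 early neuron genes, 12 of 24 progenitor genes, 16 of 22 regional factors, 14 of 16 hypothalamus factors, 9 of 18 ventral telencephalon factors and 10 of 18 channel genes through vB, and 32 of 32 Hox genes, 9 of 18 surface epithelium markers and 9 of 18 muscle genes through limb. Through vB only there were also 9 of 19 ventral midbrain genes, 9 of 14 dorsal brain genes and 7 of 15 cadherins. Further such shares were 5 of 18 motile cilium genes, 4 of 12 cranial mesenchyme markers and 4 of 7 crest markers. Through limb only there were 8 of 25 limb signalling centre genes. The lowest vB library was replicate 4 for 792 of the 1137 genes higher in vB (69.7%), and among the 731 genes higher in limb the highest vB library was replicate 5 for 362 (49.5%) and replicate 1 for 245. Among the same 731 genes the lowest limb library was replicate 4 for 406 (55.5%).

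**Figure D2:**
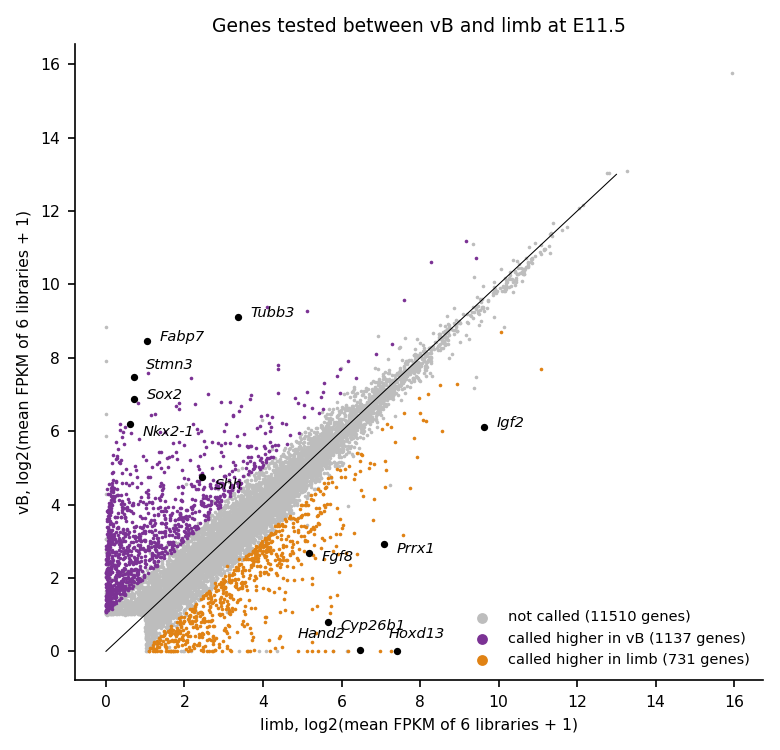
Each point is 1 of the 13378 genes tested, placed by log2(mean FPKM + 1) in limb (horizontal axis) and vB (vertical axis), with the diagonal as equality. Genes called higher in vB (1137) and in limb (731) are coloured, and Fabp7 (304 against 0.27 FPKM, medians) and Hoxd13 (0 against 169) lie near the 2 axes.

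The transcription factors that divide the neural tube into regions stood mostly near 0 in limb. Of 22 forebrain and midbrain regional factors tested, 16 were called higher in vB and 0 higher in limb, with a median difference of 3.05 (17 and 13 higher in vB with replicates 1 to 3 and 4 to 6 alone). Otx2, which is needed to form the forebrain and midbrain, ranged from 28.7 to 68.2 FPKM in vB (median 45.5) and from 0 to 1.17 FPKM in limb (median 0.0338), a difference of 5.21 ± 0.25 (adjusted p = 9.5e-09). Its lowest vB library stood above every limb library. Six3, which shapes the anterior forebrain, ranged from 2.48 to 25 FPKM in vB (median 18.2) and from 0 to 0.643 FPKM in limb (median 0.0218) and differed by 3.77 ± 0.42 (adjusted p = 1.51e-05). Its lowest vB value was replicate 4, and the tissues did not overlap. Pax6 (29.8 against 0.0689 FPKM, medians), Nr2e1 (40.9 against 0.0148), Fezf1 (27.2 against 0.030) and Lhx5 (19.7 against 0.0392), regulators of progenitor identity in the forebrain, were called as well. Among the regional factors that were not called were Tcf7l2, an effector of Wnt signalling (13.8 and 13.6 FPKM), and Zic2 (18.6 and 28.7 FPKM), both present in each tissue.

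The ventral lists had the same direction. Of 18 ventral telencephalon factors, 15 were called higher in vB and 1 higher in limb (median difference 2.79, 16 and 7 higher in vB in the 2 sets of 3). Nkx2-1, which specifies the medial ganglionic eminence and the hypothalamus, ranged from 6.93 to 102 FPKM in vB (median 95) and from 0 to 2.87 FPKM in limb (median 0.0271), a difference of 5.41 ± 0.60 (adjusted p = 1.67e-05). The lowest vB value was replicate 4 and the highest limb value was replicate 1. Dorsal brain, dissected alongside, held a median of 2.03 FPKM of Nkx2-1, and the difference between dorsal and ventral brain was not tested here. Gsx2, a determinant of the lateral ganglionic eminence, had medians of 9.44 and 0 FPKM, and Olig2, a factor of ventral progenitors, 42 and 0.0221. Lhx6 (difference 2.74) and Lhx8 (3.49), which act after Nkx2-1 in interneurons and cholinergic neurons, were called over 12 libraries but not with replicates 4 to 6 alone. The factor called higher in limb was Zfp503, from 3.5 to 17 FPKM in vB (median 10.9) and from 8.03 to 35.1 FPKM in limb (median 23.5), which overlapped (difference -1.05 ± 0.35, adjusted p = 0.0377) and was not called with vB replicates 2, 3 and 6 alone.

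Hypothalamic and ventral midbrain genes were also higher in vB than in limb. Of 16 factors of the hypothalamus and ventral diencephalon, 14 were called higher in vB and 1, Tbx3, higher in limb. Otp, which makes neuroendocrine neurons, had medians of 18.4 FPKM in vB and 0 in limb, with a range of 0.619 to 41.7 FPKM in vB. Dbx1 (34.2 against 0), Pou3f3 (70.9 against 0.473) and Nkx2-2 (7.83 against 0) did not overlap between the tissues. Of 19 floor plate and ventral midbrain genes, 11 were called higher in vB and 1, Lmx1b, higher in limb (12 and 4 with vB replicates 2, 3 and 6 alone). Foxa2, a factor of the floor plate and of dopaminergic progenitors, ranged from 0.875 to 10.2 FPKM in vB (median 5.37) and from 0 to 0.0466 FPKM in limb (median 0), a difference of 2.33 ± 0.41 (adjusted p = 0.000693). Th, the enzyme that starts dopamine synthesis, ranged from 4.89 to 14.1 FPKM in vB (median 9.26) and from 0.0974 to 0.688 FPKM in limb (median 0.164), a difference of 3.02 ± 0.21 (adjusted p = 2.68e-07). Spon1, a floor plate matrix protein, had medians of 11.5 and 0.363 FPKM. En2, a midbrain and hindbrain factor, was listed at 0 to 23.8 FPKM in vB and 0 to 0.0321 FPKM in limb, and it was not called (adjusted p = 0.0806). Its vB values were 0 to 0.165 FPKM in replicates 1 to 3 and 3.4 to 23.8 in replicates 4 to 6. With replicates 4 to 6 alone it was called higher in vB (difference 3.62, limma, adjusted p = 0.0197). Foxa2 held 0.875 to 2.22 FPKM in vB replicates 1 to 3 and 8.52 to 10.2 in replicates 4 to 6. The mean of the ventral midbrain list ranged from 1.62 to 2.81 over the vB libraries and from 1.34 to 2.31 over those of dorsal brain. Within vB it was 1.62 to 1.84 in replicates 1 to 3 and 2.20 to 2.81 in replicates 4 to 6, sets that also differed in sequencing run. For the hypothalamus list the ranges were 2.00 to 3.15 in vB and 1.65 to 2.26 in dorsal brain. Dorsal brain held a median of 38.2 FPKM of Dbx1, but only 0.147 to 2.02 FPKM of Otp. These counts set vB against limb, and the difference between vB and dorsal brain was not tested.

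**Figure D3:**
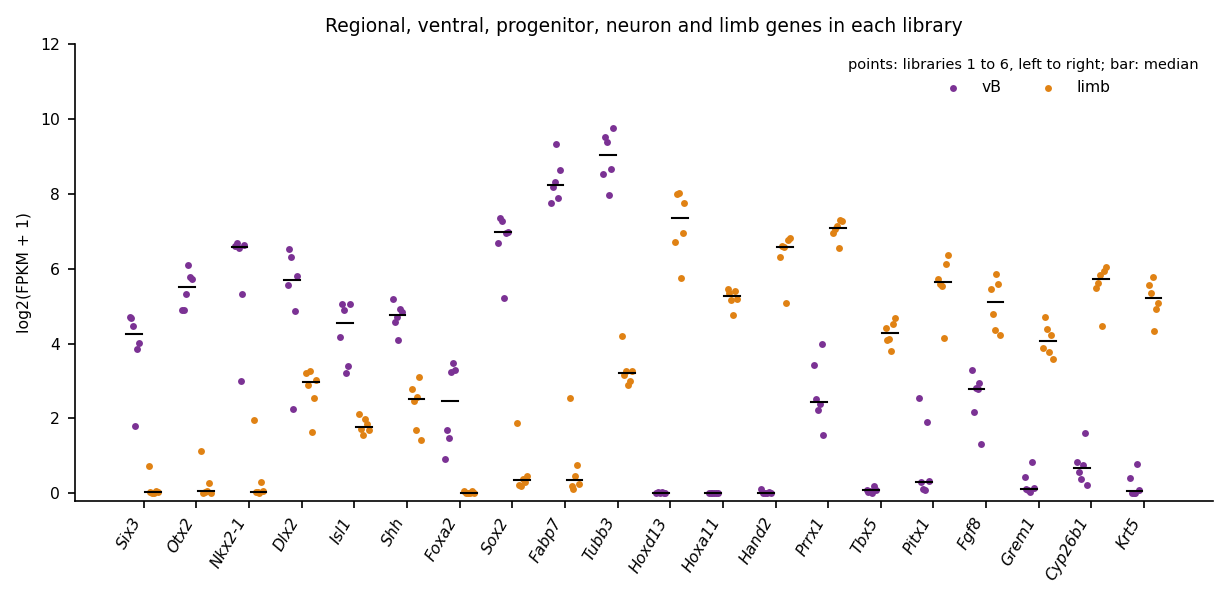
log2(FPKM + 1) (vertical axis) of 20 regional, ventral, progenitor, neuron and limb genes in each of the 6 vB and 6 limb libraries (points) with the median of each tissue (bars). Otx2, Sox2, Fabp7 and Tubb3 were apart in vB, Hoxd13, Hoxa11, Hand2 and Tbx5 in limb, and Dlx2 overlapped at vB replicate 4.

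Of the lists with at least 10 genes tested, progenitor genes had the largest median difference, 3.71. Of 24 genes, 20 were called higher in vB and 0 higher in limb, and the counts higher in vB were 20 and 17 in the 2 sets of 3. Fabp7 ranged from 214 to 649 FPKM in vB (median 304) and from 0.0716 to 4.85 FPKM in limb (median 0.27), a difference of 7.64 ± 0.40 (adjusted p = 1.84e-08), and its highest limb value was replicate 1. Sox2, the factor that keeps neural progenitors dividing, ranged from 36.4 to 162 FPKM in vB (median 125) and from 0.151 to 2.64 FPKM in limb (median 0.266), a difference of 6.18 ± 0.37 (adjusted p = 6.25e-08). Both genes were apart in every library. Sox1 (40.6 against 0.0454 FPKM, medians) and Sox3 (54 against 0.0441), relatives of Sox2, and Pou3f2 (23.9 against 0.0816), a partner of Sox2 in neural tissue, were called in both sets of 3. Hes1 (26.2 and 35.1 FPKM), Prom1 (37.3 and 34) and Slc1a3 (7.98 and 6.55) were not called.

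Notch pathway genes called between the tissues were all higher in vB. Of 20 Notch genes, 9 were called higher in vB and 0 higher in limb. Hes5, the Notch target of neural progenitors, ranged from 57.3 to 127 FPKM in vB (median 115) and from 0.0537 to 3.49 FPKM in limb (median 0.249), a difference of 6.13 ± 0.33 (adjusted p = 2.3e-08). The ligands Dll1 (28.6 against 1.19 FPKM, medians) and Dll3 (35.4 against 1.32), which nascent neurons present to their neighbours, and the modulators Mfng (62.6 against 3.83), Lfng (23.4 against 4.24) and Nrarp (90.8 against 15.5) did not overlap between the tissues. The receptors Notch2 (4.66 and 6.56) and Notch3 (19.4 and 18), the ligand Jag1 (6.23 and 10.7) and the target Hey1 (23.8 and 29.6) were not called.

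Early neuron genes were called higher in vB almost without exception, 35 of 36 with a median difference of 3.60 (34 and 29 in the 2 sets of 3). Tubb3, the tubulin of newborn neurons, ranged from 251 to 871 FPKM in vB (median 539) and from 6.47 to 17.3 FPKM in limb (median 8.26), a difference of 5.68 ± 0.31 (adjusted p = 2.42e-08). Stmn3 ranged from 103 to 279 FPKM in vB (median 178) and from 0 to 3.49 FPKM in limb (median 0.0529) and differed by 6.95 ± 0.37 (adjusted p = 2.23e-08). The neurofilament-like protein Ina (65.3 against 0.0417 FPKM, medians), the RNA-binding protein Elavl3 (64.4 against 0.107) and the zinc finger factor Insm1 (40.9 against 0.148) were apart in every library. Ebf3 was the 1 member that was not called (7.33 to 22.7 FPKM in vB and 3.15 to 25.1 FPKM in limb). Ckb, the brain creatine kinase, stood outside these lists among the largest differences, from 559.7 to 727 FPKM in vB (median 696) and from 8.78 to 31.5 FPKM in limb (median 12.5) (5.41 ± 0.25, adjusted p = 7.09e-09).

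Few transmitter genes were expressed. Of 16 genes of transmitter synthesis and transport, 7 reached the level for testing. The 7 were called higher in vB, but 5 of them passed the filter through vB only, so the count describes their level there. They were the GABA genes Gad1 (11.6 against 0.423 FPKM, medians), Gad2 (15.9 against 0.00535) and Slc32a1 (11.4 against 0), the glutamate transporter Slc17a6 (12.6 against 0.016), and Th, Ddc (7.59 against 3.27) and Slc18a2 (5.74 against 1.15) of the monoamine pathway. Limb held Ddc (2.75 to 5.35 FPKM) and Slc18a2 (0.798 to 1.41 FPKM) in every library. The other 9 genes were under 1 FPKM on average in both tissues, among them Chat, the enzyme of acetylcholine synthesis. Of 18 voltage-gated channel genes, 10 were called higher in vB (12 and 2 in the 2 sets of 3) and 2 higher in limb (15 and 2 with vB replicates 2, 3 and 6 alone). The sodium channel subunit Scn3b ranged from 2.91 to 10.7 FPKM in vB (median 4.88) and from 0.0228 to 0.103 FPKM in limb (median 0.0461) (difference 2.57 ± 0.28, adjusted p = 1.38e-05). The calcium channels Cacna1c (0.696 against 3.87 FPKM, medians) and Cacna1g (4.51 against 14.3) went the other way.

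RNA-binding proteins divided by tissue. Of 24, 10 were called higher in vB and 4 higher in limb (10 and 6 with vB replicates 2, 3 and 6 alone). Celf3 ranged from 11.4 to 112 FPKM in vB (median 70.7) and from 0.0488 to 1.73 FPKM in limb (median 0.145), a difference of 5.42 ± 0.47 (adjusted p = 1.92e-06), and Srrm4, which switches on microexons in neurons, ranged from 2.35 to 14.4 FPKM in vB (median 9.18) and from 0 to 0.325 FPKM in limb (median 0.0313), a difference of 3.07 ± 0.29 (adjusted p = 4.22e-06). Neither overlapped. Those higher in limb were Esrp1 (0.266 against 6.28 FPKM, medians) and Esrp2 (0.0212 against 2.93), splicing factors of epithelium, Hmga2 (75.5 against 265), an architectural chromatin protein kept on this list, and Ptbp1 (102 against 252), which represses neural exons. Its paralogue Ptbp2 had medians of 138 and 79.5 FPKM and did not pass the fold (difference 0.77 ± 0.14, adjusted p = 0.000678). Lin28a, Lin28b, Igf2bp1 and Igf2bp3 were not called. Of 14 tubulin isotypes, 5 were called higher in vB and 0 higher in limb: Tubb3, Tubb2b (575 against 33.2), Tubb4a (50.9 against 2.37), Tubb2a (134 against 12.8) and Tuba1a (1469.9 against 298), while Tubb5 (1249 and 1034), Tubb4b (209 and 209) and Tuba1b (282 and 282) were not. Tubulin genes are close copies of each other, so the split of reads among them is uncertain.

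The clearest marks of limb were the Hox genes. Of 39 Hox genes, 32 reached 1 FPKM on average in a tissue, and 31 of these were called higher in limb and 0 higher in vB (31 and 30 in the 2 sets of 3). The highest value of a tested Hox gene in a vB library was 0.225 FPKM. A Hox gene thus entered the test only through its level in limb, and the count is a description of that level. Hoxd13, which patterns the digits, ranged from 0 to 0.0219 FPKM in vB (median 0) and from 52.6 to 262 FPKM in limb (median 169), a difference of -7.19 ± 0.33 (adjusted p = 6.84e-09). Hoxa10 ranged from 0 to 0.0272 FPKM in vB (median 0) and from 109.9 to 141 FPKM in limb (median 123), a difference of -6.95 ± 0.09 (adjusted p = 1.88e-14). These were levels at or near 0 in all 6 vB libraries. FPKM are per length, so levels in limb can be set side by side. In the D cluster the medians were 27.4 FPKM for Hoxd9, 47.1 for Hoxd10, 65.3 for Hoxd11, 57 for Hoxd12 and 169 for Hoxd13, against 10.7 for Hoxd8, 3.81 for Hoxd4 and 1.83 for Hoxd3. In the A cluster the medians were 34 FPKM for Hoxa9, 123 for Hoxa10, 37.8 for Hoxa11 and 45.7 for Hoxa13, against 8.01 for Hoxa7, 11.6 for Hoxa5 and 4.94 for Hoxa3. Hoxa10 was above every other A cluster gene in these libraries, while the ranges of Hoxa9 (25.7 to 38.9) and Hoxa11 (26.2 to 42.6) overlapped. Of the other clusters the highest were Hoxc10 (15.9) and, in the B cluster, Hoxb2 (2.95). Hoxb6 was the tested Hox gene that stayed short of the fold (0.511 to 2.18 FPKM in limb, 0 in vB, difference -0.99 ± 0.18). The antisense gene Hoxa11as was listed at 62.4 to 210.1 FPKM in limb and at 0 in vB. It overlaps Hoxa11, and since the counting is not stated to use strand, reads of the 2 genes cannot be told apart.

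Of 34 transcription factors of limb mesenchyme, 23 were called higher in limb and 2 higher in vB (22 and 12 higher in limb in the 2 sets of 3). Hand2, which polarizes the early bud, ranged from 0 to 0.0705 FPKM in vB (median 0) and from 32.9 to 113 FPKM in limb (median 95.5), a difference of -6.34 ± 0.25 (adjusted p = 1.57e-09). Prrx1, a homeobox gene of limb and cranial mesenchyme, ranged from 1.96 to 14.9 FPKM in vB (median 4.47) and from 93.8 to 158 FPKM in limb (median 136), a difference of -4.37 ± 0.34 (adjusted p = 6.12e-07), and its highest vB values were replicates 5 (14.9 FPKM) and 1 (9.74 FPKM). Tbx5, the forelimb factor, ranged from 0 to 0.134 FPKM in vB (median 0.0533) and from 12.8 to 24.5 FPKM in limb (median 18.4), and Tbx4 and Pitx1, the hindlimb factors, had medians of 22.7 and 49.4 FPKM in limb. All 6 limb libraries held all 3 genes, with 6.7 to 28.6 FPKM of Tbx4 and 16.9 to 82.2 FPKM of Pitx1. Tbx15 (0.447 against 52.5 FPKM, medians), Shox2 (2.63 against 71) and Osr2 (0.112 against 19), factors of the limb skeleton and joints, were apart in every library, as was Meox2 (0.384 against 39), a factor of limb muscle outside this list. Higher in vB were Zeb2 (13.9 against 1.36), a repressor also used in neurons, and Meis2 (25.4 against 9.7), while Meis1 (10.9 and 9.51) and Sall4 (2.99 and 4.37) were not called. The limb medians of Meis1 and Meis2 fell between 2 groups of libraries. Meis1 held 14 to 15.6 FPKM in limb replicates 1, 4 and 5 and 4.0 to 5.02 in replicates 2, 3 and 6. For Meis2 these were 13.4 to 20 and 5.65 to 6.03 FPKM. Hoxd13 split the other way, at 52.6 to 123 and 215 to 262 FPKM, and the reason was not tested.

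The ridge ligand Fgf8 was higher in limb and Shh, made at the posterior margin, was higher in vB. Of 25 limb signalling centre genes, 16 were called higher in limb and 2, Shh and Fgf17, higher in vB. From vB replicates 2, 3 and 6 alone the calls were 17 and 4. Fgf8, the main ligand of the ridge and of brain organizers, ranged from 1.49 to 8.74 FPKM in vB (median 5.95) and from 17.7 to 57.4 FPKM in limb (median 34.7), a difference of -2.5 ± 0.36 (adjusted p = 0.00014). Fgf10, through which limb mesenchyme maintains the ridge, ranged from 0.0536 to 2.08 FPKM in vB (median 0.339) and from 6.51 to 8.99 FPKM in limb (median 8.01) (-2.53 ± 0.23, adjusted p = 2.94e-06). Grem1, the Bmp antagonist that links the 2 centres, ranged from 0.0295 to 0.783 FPKM in vB (median 0.0817) and from 11.1 to 25.2 FPKM in limb (median 15.8) (-3.83 ± 0.20, adjusted p = 2.23e-08). None of these 3 overlapped between the tissues. Fgf targets followed: Dusp6 (17.5 against 83.6 FPKM, medians), Spry4 (0.911 against 11.1), Etv4 (3.33 against 24.6) and Etv5 (6.48 against 24.2) were called higher in limb. Of 27 Fgf pathway genes in all, 7 were called higher in vB and 9 higher in limb. The brain side held Fgf15, from 20.2 to 40.0 FPKM in vB (median 26.4) and from 0.0705 to 0.718 FPKM in limb (median 0.281) (4.44 ± 0.16, adjusted p = 5.82e-10), with Fgf17 (6.81 against 0.87), Fgfbp3 (21.2 against 1.72), the receptor Fgfr3 (34.4 against 3.95) and the intracellular Fgf11, Fgf13 and Fgf14.

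Bmp, Wnt and retinoic acid genes were weighted towards limb. Of 26 Bmp pathway genes, 12 were called higher in limb and 3 higher in vB (16 and 5 higher in limb in the 2 sets of 3, 17 with vB replicates 2, 3 and 6 alone). Bmp4 ranged from 0.656 to 6.24 FPKM in vB (median 2.48) and from 26.5 to 35.4 FPKM in limb (median 31.1), a difference of -3.24 ± 0.33 (adjusted p = 7.35e-06), and the Bmp targets Msx1 (2.04 against 27.4 FPKM, medians), Msx2 (1.02 against 19.2) and Id1 (24.3 against 138) went with it. Those higher in vB were Id4 (108 against 3.91) and the antagonists Fst (10.1 against 2.49) and Nog (7.42 against 1.26). Of 42 Wnt pathway genes, 15 were called higher in limb and 9 higher in vB (20 and 12 with vB replicates 2, 3 and 6 alone). Wnt5a, which directs outgrowth of the bud, ranged from 4.22 to 17.2 FPKM in vB (median 7.09) and from 26.7 to 83 FPKM in limb (median 65.4) (-2.78 ± 0.31, adjusted p = 1.85e-05). The secreted inhibitors Frzb (3.08 against 36.3) and Wif1 (0.772 against 13.5) were higher in limb, whereas Sfrp1 (50.9 against 10.0) and the ligand Wnt7b (53.7 against 8.48) were higher in vB and Sfrp2 (37.5 and 34.2) was not called. Of 17 retinoic acid genes, 8 were called higher in limb and 1, Aldh1a3, higher in vB. Cyp26b1, which clears retinoic acid from the distal bud, ranged from 0.155 to 2.07 FPKM in vB (median 0.587) and from 21 to 65.7 FPKM in limb (median 52), a difference of -4.84 ± 0.28 (adjusted p = 4.88e-08), and the receptor Rarg ranged from 0.851 to 15.1 FPKM in vB (median 1.88) and from 32.6 to 75.9 FPKM in limb (median 59.8) (-3.74 ± 0.50, adjusted p = 8.17e-05). Aldh1a3 (0.465 to 10.2 FPKM in vB) was called over 12 libraries but in neither set of 3, and its highest values were vB replicates 5 (10.2 FPKM) and 1 (5.25 FPKM), the libraries with Cryaa.

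Genes with known roles in both tissues made a list of 40. All were tested, 11 were called higher in vB, 11 higher in limb and 18 not called, with a median difference of 0.30. Shh, the morphogen of floor plate and posterior limb margin, ranged from 16.1 to 35.6 FPKM in vB (median 26.3) and from 1.68 to 7.57 FPKM in limb (median 4.71), a difference of 2.38 ± 0.28 (adjusted p = 2.48e-05) that was 2.51 and 2.26 in the 2 sets of 3. The vB libraries held more Shh in every case. Isl1, used in ventral brain neurons and at the base of the hindlimb, ranged from 8.25 to 32.1 FPKM in vB (median 23) and from 1.92 to 3.33 FPKM in limb (median 2.42) (2.48 ± 0.32, adjusted p = 5.43e-05), and Nr2f1, a nuclear receptor that patterns the forebrain, ranged from 37.2 to 157 FPKM in vB (median 123) and from 2.46 to 11.8 FPKM in limb (median 6.1) (3.91 ± 0.42, adjusted p = 1.12e-05). Lmx1b, which specifies dopaminergic progenitors in the midbrain and dorsal identity in the limb, ranged from 0.385 to 3.75 FPKM in vB (median 2.49) and from 3.7 to 24.8 FPKM in limb (median 20.5) (-2.62 ± 0.44, adjusted p = 0.00046) and overlapped. Lhx9, a limb outgrowth and diencephalon factor, ranged from 3.14 to 16 FPKM in vB (median 9.98) and from 51 to 71.6 FPKM in limb (median 67.8) (-2.85 ± 0.34, adjusted p = 2.64e-05) and did not overlap. Its relative Lhx2 ranged from 17.6 to 99 FPKM in vB and 36.7 to 57.1 FPKM in limb, and it was not called (difference 0.46 ± 0.34, adjusted p = 0.341), with 1.15 in replicates 1 to 3 and -0.22 in replicates 4 to 6. Sox9 (-0.07 ± 0.36), Meis1 (0.07 ± 0.40) and Zbtb16 (0.05 ± 0.28) had the differences nearest 0, though Meis1 ranged from 4.0 to 15.6 FPKM over the limb libraries. Dlx1 and Dlx2 were called higher in vB, with differences of 3.00 ± 0.57 and 2.45 ± 0.61, and Dlx5 was not (1.24 ± 0.46, adjusted p = 0.0544). Dlx5 was called higher in vB with replicates 1 to 3 alone (1.85) and with vB replicates 2, 3 and 6 alone (2.06), but not with replicates 4 to 6 alone (0.62). It stood at 3.475 FPKM in vB replicate 4 and at 14.5 FPKM or more in the other vB libraries. In vB replicate 4 Dlx2 stood at 3.72 FPKM, within the limb range of 2.08 to 8.67, and the other vB libraries held 28.2 FPKM or more. With vB replicates 2, 3 and 6 alone, 14 and 10 of the 40 were called.

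**Figure D4:**
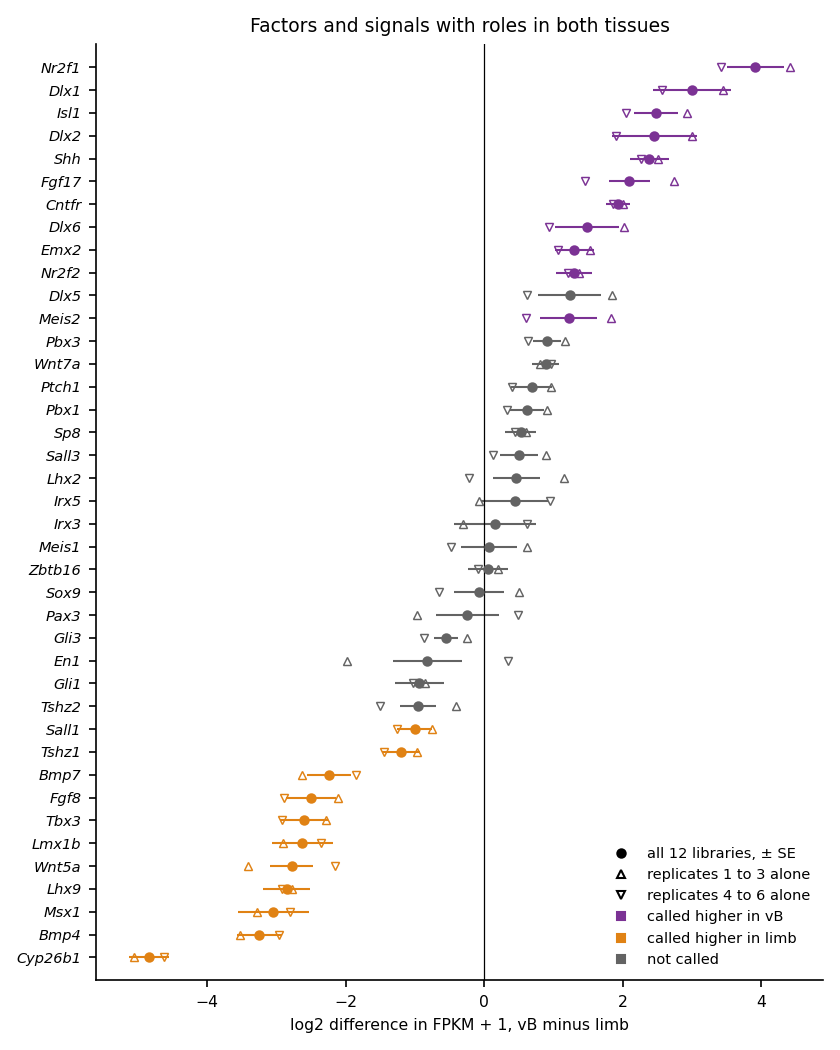
Difference on the log2(FPKM + 1) scale, vB minus limb (horizontal axis), for the 40 genes with roles in both tissues, from all 12 libraries (filled circles, bars are ± SE) and from replicates 1 to 3 or 4 to 6 alone (open triangles). The differences ran from -4.84 for Cyp26b1 to 3.91 for Nr2f1, and Shh lay at 2.38.

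Hedgehog pathway genes were called in both directions. Of 25 genes, 3 were called higher in vB and 2 higher in limb, a share of 20.0% against 14.0% of all genes. The counts were 3 and 5 with vB replicates 2, 3 and 6 alone. Ptch1, the receptor and target, ranged from 20.9 to 73.3 FPKM in vB (median 50.2) and from 15.1 to 34.4 FPKM in limb (median 31.5) and was not called (0.68 ± 0.29, adjusted p = 0.0911). Gli1, the most direct target, ranged from 2.61 to 14.6 FPKM in vB (median 9.07) and from 7.87 to 24.2 FPKM in limb (median 19.6) and was not called either, with a difference in the other direction (-0.94 ± 0.35, adjusted p = 0.0596). The medians of Smo (45.1 and 70.6 FPKM), Gli2 (6.13 and 9.56) and Sufu (27.3 and 33) were within 2-fold of each other. The co-receptors Gas1 (15.2 against 85.7) and Cdon (4.44 against 12.2) were called higher in limb, and Lrp2 (1.28 against 0.017), a Shh receptor of the ventral forebrain, and Disp2 (3.7 against 0.0175) higher in vB.

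Muscle, skeleton and matrix genes that were called were higher in limb, except Nog. Of 18 muscle genes, 11 were called higher in limb and 0 higher in vB. Lbx1, a marker of migrating muscle precursors, ranged from 0 to 0.067 FPKM in vB (median 0) and from 1.52 to 8.85 FPKM in limb (median 4.78) (-2.29 ± 0.28, adjusted p = 3.53e-05), and Myod1, a myogenic determination factor, ranged from 0 to 0.514 FPKM in vB (median 0.037) and from 2.72 to 13.7 FPKM in limb (median 5.65) (-2.57 ± 0.27, adjusted p = 9.49e-06). Pax3, of muscle precursors and dorsal neural tube, ranged from 0.0885 to 7.41 FPKM in vB and 1.0 to 3.16 FPKM in limb and was not called (adjusted p = 0.737). Of 18 cartilage, bone and tendon genes, 7 were called higher in limb and 1, Nog, higher in vB. Scx, the tendon factor, ranged from 0.487 to 2.88 FPKM in vB (median 0.867) and from 27.8 to 46.9 FPKM in limb (median 38.3) (-4.17 ± 0.23, adjusted p = 2.45e-08). The cartilage collagen Col2a1 ranged from 18.4 to 56.7 FPKM in vB (median 19.6) and from 20.1 to 110.2 FPKM in limb (median 41.4) and was not called. Of 28 matrix genes, 7 were called higher in limb over 12 libraries and 19 with vB replicates 2, 3 and 6 alone. The 7 are 25% of the list, against 14.0% of all genes called in either direction. Col1a2 ranged from 1.15 to 77.7 FPKM in vB (median 26.2) and from 44.6 to 144 FPKM in limb (median 81.3) (-2.31 ± 0.74, adjusted p = 0.0297), with 39.6, 40.6 and 77.7 FPKM in vB replicates 1, 4 and 5 and 12.7, 4.59 and 1.15 in replicates 2, 3 and 6. Mesenchyme markers were called higher in limb for 6 of 12, and for 9 without vB replicates 1, 4 and 5. Those libraries were left out because they held the most mesenchyme or the fewest ventral genes. The larger counts of mesenchyme and matrix genes without them therefore describe that choice. Twist1 (6.33 against 111 FPKM, medians) and Pdgfra (5.33 against 40.0) were called, and Lum (21.1 and 10.3) and Dcn (2.38 and 2.39) were not.

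Surface epithelium markers were higher in limb. Of these, 18 of 18 tested were called higher in limb, 15 and 8 in the 2 sets of 3 and 18 with vB replicates 2, 3 and 6 alone. Krt5, a keratin of basal epithelium, ranged from 0 to 0.725 FPKM in vB (median 0.0329) and from 19.2 to 53.9 FPKM in limb (median 36.6) (-4.96 ± 0.23, adjusted p = 6.84e-09), and Trp63, the master factor of stratified epithelium, ranged from 0.00838 to 1.71 FPKM in vB (median 0.039) and from 6.42 to 13.3 FPKM in limb (median 8.73) (-2.90 ± 0.26, adjusted p = 2.88e-06). The highest vB value was replicate 1 or 5 for both. Of the blood and vessel lists, 1 of 14 endothelium markers was called higher in limb, Erg (1.25 against 4.96 FPKM, medians), and 0 of 12 erythroid and 0 of 11 macrophage markers were called by limma in either direction, where 2 of each list had an unadjusted p under 0.05. For endothelium the share called was 7.14%, against 14.0% of all genes. With vB replicates 2, 3 and 6 alone, 5 endothelium and 9 erythroid markers were called higher in limb. The list means in those replicates were 2.15 to 2.56 and 4.61 to 4.76 against 3.25 to 3.50 and 5.84 to 6.55 in replicates 1, 4 and 5. The part of these cell types in the other differences was not tested.

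Growth factor and imprinted genes held some large single differences. Igf2, the fetal growth factor, ranged from 7.53 to 155 FPKM in vB (median 37.1) and from 435 to 995 FPKM in limb (median 828), a difference of -4.14 ± 0.61 (adjusted p = 0.000166), and H19, transcribed from the same imprinted domain, ranged from 0.0554 to 1.58 FPKM in vB (median 0.353) and from 5.63 to 16.7 FPKM in limb (median 10.6) (-2.85 ± 0.26, adjusted p = 3.02e-06). Of 35 imprinted genes, 12 were called higher in vB and 7 higher in limb (14 and 6 with replicates 1 to 3 alone, 3 and 3 with replicates 4 to 6 alone). On the vB side were Dlk1 (79.1 against 18.1 FPKM, medians), Rian (238 against 67.8) and Ndn (199.5 against 62.8). Pdgfc (3.99 against 38.8), Pdgfa (4.16 against 20.6) and Igfbp3 (3.67 against 22.4) were higher in limb and Igfbpl1 (63 against 1.53) higher in vB. Of 23 genes of glucose uptake and glycolysis, 2 were called higher in limb, the glucose transporter Slc2a3 (5.64 against 36) and Eno3 (6.4 against 26.7), and 1 higher in vB, Eno2 (4.31 against 0.714), the enolase of neurons. Together these are 13.04% of the list against 14.0% of all genes. Against limb, vB replicates 2, 3 and 6 alone gave 4 higher in limb and 1 higher in vB. Of 29 proliferation genes, 1, Ccne1, was called (20.6 against 39.4), a share of 3.45% against 14.0% of all genes. Of 13 cell cycle exit genes, 4 were called higher in vB, among them Gadd45g, from 33.9 to 77.1 FPKM in vB (median 52.1) and from 3.62 to 5.96 FPKM in limb (median 4.48) (3.18 ± 0.20, adjusted p = 8.63e-08), and Btg2 (41.1 against 7.58). Of 20 widely expressed reference genes, none was called in either direction by limma. For 1, Gusb, both the unadjusted and the adjusted p were under 0.05, and it fell just short of the fold (difference -1.0 ± 0.22).

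Ciliary genes, the subject of the study, were compared over 5 lists. Of 133 tested, 10 were called higher in vB and 3 higher in limb, together 9.77% against 14.0% of all genes, with a median difference of 0.10 (13 and 2 with replicates 1 to 3 alone, 3 and 3 with replicates 4 to 6 alone). Among 43 genes of intraflagellar transport, its motors and the BBSome, which build the axoneme and sort membrane proteins, limma called none in either direction. Of these, 14 had an unadjusted p under 0.05 and 8 an adjusted p under 0.05, but none of the 8 reached the fold. Bbip1, a BBSome subunit, ranged from 16.8 to 34.2 FPKM in vB (median 19.2) and from 10.1 to 15.8 FPKM in limb (median 12.4) (0.69 ± 0.17, adjusted p = 0.00637) and did not reach the fold. Of 32 transition zone genes, Ahi1 was called higher in vB, from 11 to 22.9 FPKM in vB (median 14.7) and from 5.14 to 7.03 FPKM in limb (median 6.13) (1.24 ± 0.16, adjusted p = 5.19e-05), and Tsga14 (also Cep41) higher in limb, from 5.77 to 6.87 FPKM in vB (median 6.78) and from 12.6 to 17.6 FPKM in limb (median 14.7) (-1.06 ± 0.10, adjusted p = 3.43e-06). Both belong to the Joubert syndrome genes, and neither overlapped between the tissues. They make up 6.25% of the list, against 14.0% of all genes. Of 23 genes of the ciliary membrane and its traffic, Tub (18.2 against 2.91 FPKM, medians) was called higher in vB, and Rab34 (21.3 against 47.4) and Pkp3 (0.0251 against 3.01) were called higher in limb. The share called was 13.04% of this list, close to the 14.0% of all genes. Pkp3 is also a desmosome protein of epithelium, and its highest vB values were replicates 1 (0.584 FPKM) and 5 (0.823 FPKM). Of 45 motile cilium genes only 18 were high enough to test, and 4 of them were higher in vB (7 with vB replicates 2, 3 and 6 alone): Foxj1, the master factor of motile cilia (2.3 against 0.356), Rfx4 (11.2 against 0.281), Dnahc7a (3.45 against 0.981) and Rsph1 (1.97 against 0.355). That is 22.2% of the list, against 8.50% of all genes called higher in vB. Foxj1, Rfx4 and Rsph1 were under 1 FPKM in limb and entered the test through vB only, so they were bound to be higher there. Of 18 tubulin-modifying enzymes, Atat1 (58 against 23.9), Ttll1 (13.6 against 6.52), Ttll7 (3.56 against 1.03) and Vash1 (23.8 against 8.94) were higher in vB, 22.2% of the list. With vB replicates 2, 3 and 6 alone 20 ciliary genes were called.

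**Figure D5:**
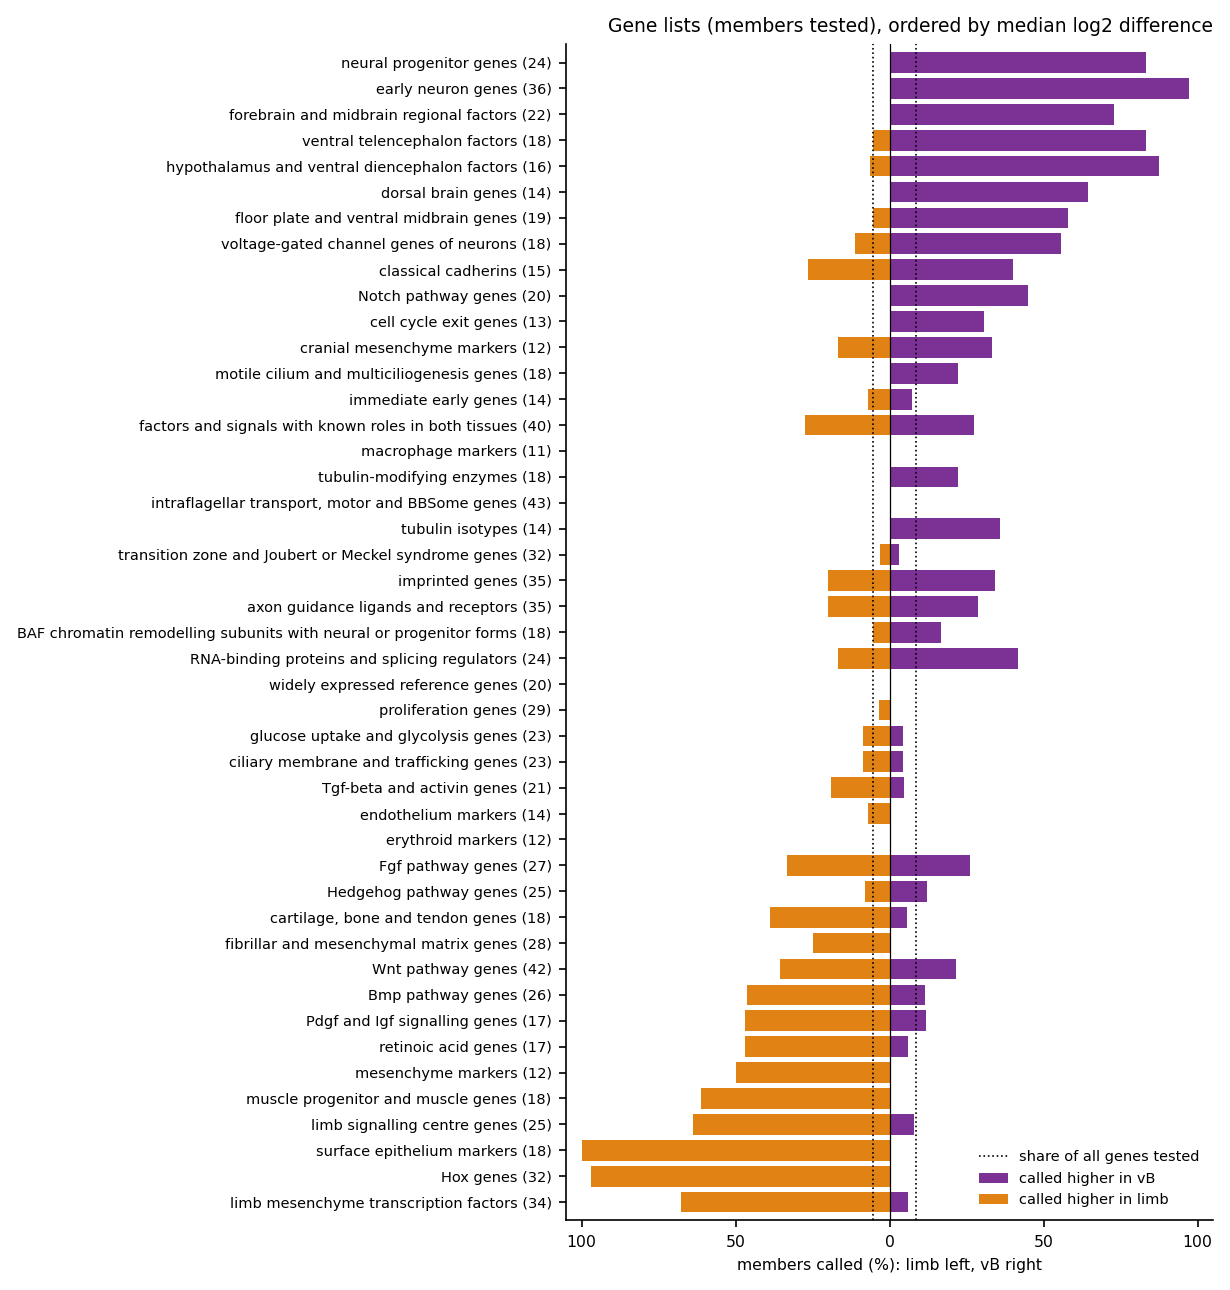
Share of the tested members of each gene list (horizontal axis, %) called higher in vB (right) or in limb (left), for the lists with at least 10 members tested (number in brackets), ordered by median difference. Dotted lines mark the shares over all genes tested, 8.50% and 5.46%, and the largest shares belonged to early neuron genes (35 of 36) towards vB and to surface epithelium markers (18 of 18) towards limb.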

How the data were processed

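PolyA RNA-seq was analysed from 6 vB and 6 limb pools. The authors deposited Cufflinks tables with an FPKM value and a coverage signal for each transcript on mm10, and the submitters' processing notes name Bowtie2 and DESeq2. Aligner and versions behind these tables: not given in the sources used here. FPKM were summed by gene symbol. FPKM are not counts, so limma 3.58.1 in R 4.3.3 (trend, robust) was fitted to log2(FPKM + 1) of the 12 libraries for 13378 genes averaging 1 FPKM or more in either tissue. A call needed a 2-fold difference and an adjusted p (Benjamini-Hochberg) below 0.05. The tables do not give the number of reads in each library, for which the study states a minimum, and coverage per FPKM served as the measure of depth. Whether pools came from separate litters is not stated, so p-values measure the spread between these pools.

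On simulated data for vB against limb with 13378 genes, the fit called 88 of 100 genes set to differ by 1.5 (log2), 98 of 100 set to differ by 2.5 and 4 unchanged genes. The genes set to differ were drawn from those of higher mean level, and noise was drawn independently for each gene and library. These counts therefore do not cover genes near 1 FPKM, or shifts that many genes of a library share, as in vB replicate 4.

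The comparison, its members and the gene lists were chosen with earlier results of these data known. Genes named were the 12 largest differences per direction without overlap, the 4 called members of largest difference per direction in each list, all called members where 5 or fewer, any member of the both-tissue, marker and control lists, and called ciliary genes with the nearest below the fold. Of 226 genes named, 67 fall outside this rule, their choice having followed a look at the values: Col2a1, Ddc, Dusp6, Ebf3, Elavl3, En2, Etv5, Fezf1, Fgf11, Fgf13, Fgf14, Foxa2, Gad1, Gli2, Gsx1, Gsx2, Hes1, Hey1, Hoxa3, Hoxa5, Hoxa7, Hoxb2, Hoxb6, Hoxc10, Hoxd3, Hoxd4, Hoxd8, Hoxd9, Id1, Igf2bp1, Igf2bp3, Insm1, Jag1, Lfng, Lhx5, Lhx6, Lhx8, Lin28a, Lin28b, Ndn, Nkx2-2, Notch2, Notch3, Nrarp, Osr2, Pax6, Pdgfa, Pou3f2, Prom1, Ptbp2, Rian, Sall4, Sfrp2, Shox2, Six3, Slc18a2, Slc1a3, Smo, Sox1, Sufu, Tbx4, Tbx5, Tcf7l2, Tuba1b, Tubb4b, Tubb5, Zic2. Transcripts without a gene name were left out. Some genes are not reported here. Alternatives were another pseudocount, other filters, quantile normalization, blocks for replicate or sequencing run, each set of 3 replicates, each library left out, all 35 libraries, array weights, a test against a 1.5-fold change and transcripts under 200 bases left out. The fit with only vB replicates 2, 3 and 6 was added after seeing the data. It left out the vB libraries with the most mesenchyme or the fewest ventral genes, so its counts for such genes describe that choice.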

Additional observations from a re-analysis of the deposited data

Results flagged for a closer look

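A library far from the other 5 of its tissue was found in 56 of 383 sets of 6 values, by Dixon's criterion on log2(FPKM + 1). Sets with every library under 1 FPKM were left out. Chance alone marks about 1 in 20 such sets, and the sets share libraries. Each value below is the FPKM of that library, and what sets the library apart was not tested. In vB replicate 4 the lowest value stood apart for 25 genes. They included Dlk1 at 16.8 FPKM, Dll1 at 8.08 FPKM, Dpf1 at 3.71 FPKM, Elavl3 at 5.79 FPKM, Gsx1 at 2.97 FPKM and Hes5 at 57.3 FPKM. The same library held Id4 at 25.2 FPKM, Insm1 at 5.81 FPKM, Lfng at 17.0 FPKM, Lhx2 at 17.6 FPKM, Meis1 at 2.73 FPKM and Nkx2-1 at 6.93 FPKM. It also held Nkx2-2 at 2.29 FPKM, Nog at 0.877 FPKM, Notch3 at 2.94 FPKM, Nr2e1 at 8.5 FPKM, Nrarp at 47.4 FPKM and Nrp2 at 2.19 FPKM. Others were Olig2 at 5.55 FPKM, Six3 at 2.48 FPKM, Sox1 at 9.47 FPKM, Sox2 at 36.4 FPKM, Unc5b at 1.2 FPKM and Vash1 at 4.19 FPKM. Further values there were Wnt7b at 9.26 FPKM.

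In limb replicate 1, the library with traces of vB genes, the highest value stood apart for 14 genes. They included Celf3 at 1.73 FPKM, Dbx1 at 1.47 FPKM, Elavl3 at 1.61 FPKM, Fabp7 at 4.85 FPKM, Hes5 at 3.49 FPKM and Ina at 1.24 FPKM. The same library held Nkx2-1 at 2.87 FPKM, Nr2e1 at 1.11 FPKM, Olig2 at 1.59 FPKM, Otx2 at 1.17 FPKM, Sox2 at 2.64 FPKM and Sox3 at 2.06 FPKM. It also held Stmn3 at 3.49 FPKM and Tubb3 at 17.3 FPKM.

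In limb replicate 4 the lowest value stood apart for 15 genes. They included Cyp26b1 at 21 FPKM, Dpf1 at 4.34 FPKM, Hand2 at 32.9 FPKM, Hes1 at 16.9 FPKM, Hoxd12 at 21.6 FPKM and Igf2 at 435 FPKM. The same library held Lmx1b at 3.7 FPKM, Nrp2 at 12.8 FPKM, Ptch1 at 15.1 FPKM, Smarcd2 at 28 FPKM, Smo at 32.2 FPKM and Tbx4 at 6.7 FPKM. It also held Unc5b at 8.42 FPKM, Vash1 at 2.5 FPKM and Zfp503 at 8.03 FPKM.

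Hoxa9 stood apart as the lowest limb value in replicate 1, at 25.7 FPKM. Tubb5 stood apart as the highest vB value in replicate 4, at 2028 FPKM.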

How the results depend on the processing

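No gene called between vB and limb changed sign under the 25 alternatives. Of the 187 called genes named in the text, 124 were called under each alternative that tested them, leaving aside the one added later. Of the 39 named genes that were not called, 15 had the other sign under some alternative. Leaving out 1 library at a time gave 1056 to 1350 genes higher in vB, 641 to 826 higher in limb, 9 to 15 ciliary genes and 17 to 20 lists with a median difference of at least 1 in size. Replicates 4 to 6 alone called 568 and 281 genes and 6 ciliary genes, and 61 of the named genes lost their call there. Ciliary calls were 8 with a mean of at least 5 FPKM, 8 against a fold of 1.5, and 20 with vB replicates 2, 3 and 6 alone, against 13. Without a filter on low values 12 lists passed that median, against 19. The cause of these shifts was not tested. Quantile normalization moved the calls to 1025 and 837. The replicate block gave 1152 and 736. Deviations of same-numbered libraries correlated at 0.385, 0.066, 0.237, 0.664, 0.337 and 0.112 for numbers 1 to 6, all above 0. The vB libraries 1, 3, 4, 5 and 6 were closest to the limb library of their own number. Limb libraries 1, 4 and 5 were closest to the vB library of theirs. The main fit did not use the numbers as pairs, and whether same-numbered pools shared embryos or handling was not tested. Depth limits genes near 1 FPKM, and for genes not named here a value of 0 may be a failed estimate. None of the named genes had an estimate marked as failed in a vB or limb library.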

Other observations

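Guidance and adhesion genes were called in both directions. Of 35 axon guidance ligands and receptors, 10 were called higher in vB and 7 higher in limb. Dcc, the netrin receptor, ranged from 6.0 to 24.3 FPKM in vB (median 10.1) and from 0.0519 to 0.455 FPKM in limb (median 0.101), a difference of 3.27 ± 0.29 (limma, adjusted p = 2.29e-06), and Robo3, which lets commissural axons cross the midline, had medians of 6.49 and 0.0223 FPKM. Both were apart in every library. Robo2 (6.16 against 21.3 FPKM, medians), a Slit receptor, Unc5b (5.95 against 22.2), a netrin receptor also of vessels, and Nrp2 (9.89 against 42.5), a semaphorin receptor, were higher in limb. Of 15 classical cadherins, 6 were called higher in vB and 4 higher in limb, where 7 had passed the filter of 1 FPKM through vB only and 1 through limb only. N-cadherin, Cdh2, ranged from 42 to 95.7 FPKM in vB (median 66) and from 12.5 to 21 FPKM in limb (median 18.7) (1.87 ± 0.19, limma, adjusted p = 6.52e-06). Higher in limb were the epithelial cadherins Cdh1 (0.471 against 5.43 FPKM, medians) and Cdh3 (0.241 against 24.6), the mesenchymal Cdh11 (21.9 against 78.4) and the muscle Cdh15 (0.0848 against 1.7).

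Among 18 BAF chromatin remodelling subunits, those called higher in vB were Actl6b (12.7 against 0 FPKM, medians), Dpf1 (24.6 against 7.35) and Ss18l1 (9.3 against 3.32), the subunits of the neuronal complex, and Smarcd2 (7.8 against 40.0) was higher in limb. Together these are 22.2% of the list, against 14.0% of all genes. With vB replicates 2, 3 and 6 alone 7 and 1 subunits were called. Of 21 Tgf-beta and activin genes, 4 were called higher in limb, among them Tgfb3 (1.42 against 7.81) and Ltbp1 (1.31 against 7.76), and 1, Fst, higher in vB. This is 23.8% of the list, against 14.0% of all genes. Of 14 dorsal brain genes, 9 were called higher in vB than in limb, including Tbr1, a factor of early cortical neurons (13.3 against 0.0614 FPKM). Since 9 of the 14 passed the filter of 1 FPKM through vB only, the count describes their level there. Dorsal brain held a median of 16.7 FPKM of Tbr1, and the difference from vB was not tested here. Among 12 cranial mesenchyme markers, 4 were called higher in vB, among them Foxf2 (4.81 against 0.566) and Foxl2 (1.63 against 0.0925), and 2 higher in limb, Tbx18 (2.7 against 22.2) and Tfap2b (2.26 against 13.9). With vB replicates 2, 3 and 6 alone the counts were 4 and 5. Foxf2 stayed called there, and its highest vB values were replicates 1 (20.1 FPKM) and 5 (11.6 FPKM). Foxl2 was called in neither set of 3 and was too low to test with replicates 2, 3 and 6 alone. Its highest vB values were replicates 5 (7.8 FPKM) and 1 (2.7 FPKM). Of 4 pituitary and oral ectoderm markers tested, 2 were called higher in vB, among them Pomc (4.31 against 1.78), also of hypothalamic neurons, and 1, Pitx1, higher in limb. Of 7 crest, glia and pigment cell markers tested, 3 were called higher in vB and 1, Erbb3 (0.146 against 2.47), higher in limb. Ednrb, a crest marker also found in radial glia, ranged from 18.8 to 46.5 FPKM in vB (median 28.4) and from 0.476 to 1.14 FPKM in limb (median 0.656) (4.11 ± 0.21, limma, adjusted p = 1.73e-08).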
